A study of Homo sapiens with 12 samples.

Results

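The response to vincristine (VCR) was examined in the control-vector (NC) cells of the study, which the labels call Jurkat, a line from a human T-cell leukemia. Members were chosen by label. They were the 3 libraries of NC cells given VCR for 48 h (NC+VCR) and the 3 libraries of NC cells given the solvent DMSO for 48 h (NC+DMSO), that is 6 of the 12 libraries in the series. The other 6 libraries came from cells that overexpress FLAG-tagged PTPN21, a non-receptor tyrosine phosphatase, with DMSO (PTPN21+DMSO, 3 libraries) or VCR (PTPN21+VCR, 3 libraries), also for 48 h. The labels give the NC cells the wild-type genotype, and the study's methods describe cells transduced with a GFP lentiviral vector. The VCR dose behind these libraries is not given in the sources used here, and nothing states that the libraries came from separate cultures, so p-values measure the spread between these libraries, which may be technical. Of 60671 genes in the table, 11675 had a mean of at least 1 FPKM (fragments counted per length of gene and size of library) over the 6 NC libraries and were analysed on log2(FPKM + 1). FBXW8, with a mean of 1.001, lay just inside this limit, and SMYD4, with 0.999, just outside. The overexpressed gene itself, PTPN21, was at 0.0212 to 0.569 FPKM in the 6 NC libraries and at 4.34 to 10.5 in the 6 PTPN21 libraries.

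VCR is a vinca alkaloid that binds tubulin and blocks microtubule assembly. Without a working spindle, dividing cells are held in mitosis by the spindle checkpoint and may later die or leave mitosis without dividing. Cells also sense free tubulin: when tubulin subunits are in excess, the factor TTC5 binds the first residues of tubulin as it leaves the ribosome, and the tubulin mRNA is degraded. The comparison of NC+VCR with NC+DMSO asks which RNAs differed after 48 h of the drug in cells without the PTPN21 construct.

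The table gives no depth. The step size of low FPKM values put the NC+DMSO libraries at 14400000 to 16300000 fragments and the NC+VCR libraries at 16750000 to 17850000, in a search from 12000000 to 25000000 that cannot tell a value from its double. Pearson's correlation across the 11675 genes, which are not independent, was 0.936 to 0.962 among NC+DMSO libraries, 0.941 to 0.950 among NC+VCR libraries and 0.877 to 0.917 between the groups. In 123 genes the highest library of a group was at least 10 times the lowest on FPKM + 1, and 10 of these were among the genes called below.

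The label was then set against lineage markers. Of 16 T-lineage markers, 13 had a mean below 1 FPKM over the 6 libraries. The receptor chain CD247, the surface proteins CD2, CD5 and CD28 and the kinase LCK were listed at 0 in all 6, and CD3E did not exceed 0.0234 FPKM. The exceptions were CD3D, at 82.3, 93.8 and 61.8 FPKM in NC+DMSO and 131, 129 and 107 in NC+VCR, the pan-leukocyte phosphatase PTPRC, at 23.6, 16.8 and 27.1 FPKM in NC+DMSO and 31.6, 32.9 and 29.7 in NC+VCR, and the receptor constant gene TRBC1, at 1.45, 1.57 and 1.83 FPKM in NC+DMSO and 4.15, 0 and 0.922 in NC+VCR. Several erythroid RNAs, though not all, were plentiful in the same libraries. The fetal globin HBG2 was at 1141, 1308 and 779.6 FPKM in NC+DMSO and 559.7, 588 and 637 in NC+VCR. Its embryonic relative HBZ was at 190.0, 225 and 119 FPKM in NC+DMSO and 43.9, 36.1 and 39.7 in NC+VCR, and the erythroid transcription factor GATA1 at 66.3, 76.9 and 57.4 FPKM in NC+DMSO and 25.3, 13.5 and 21.3 in NC+VCR. The summed level of the 16 T-lineage markers was 91.7 to 115 FPKM in NC+DMSO and 140 to 169 in NC+VCR, nearly all of it CD3D and PTPRC. Of 5 erythroid markers, 4 were kept, with a sum of 165 to 174 FPKM in NC+DMSO and 81.1 to 98.3 in NC+VCR. The marker HBB was not kept, at 0 in every NC+DMSO library and at 0, 0 and 1.66 FPKM in NC+VCR. Of the erythroid genes outside the list, HBM was listed at 0 in every NC library and EPB42 had a mean below 1 FPKM. All 6 B-cell markers had a mean below 1 FPKM. Of 7 myeloid markers, LYZ, ITGAM and CD68 were kept and CD14 and MPO were listed at 0, with a sum of 424 to 478 FPKM in NC+DMSO and 188 to 257 in NC+VCR, and 0 of the 3 rose and 1 fell (0 and 3 at an unadjusted p under 0.05 in limma). LCK, CD5, CD28 and CD247 were also listed at 0 in all 12 libraries of the series. An exact 0 in this table may be a failed estimate rather than a lack of RNA, since broadly expressed genes were low too: the glutathione peroxidase GPX1 was at 0 in 10 of the 12 libraries, and the mitotic enzyme UBE2C did not exceed 0.814 FPKM. As far as these values can be read, the low T-lineage markers and the erythroid RNAs went against the T-lymphocyte label. The cells are called NC cells below. HBG1, HBG2, HBZ, GATA1 and the other erythroid genes outside the list of 5 were chosen after their values were seen.

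**Figure D1:**
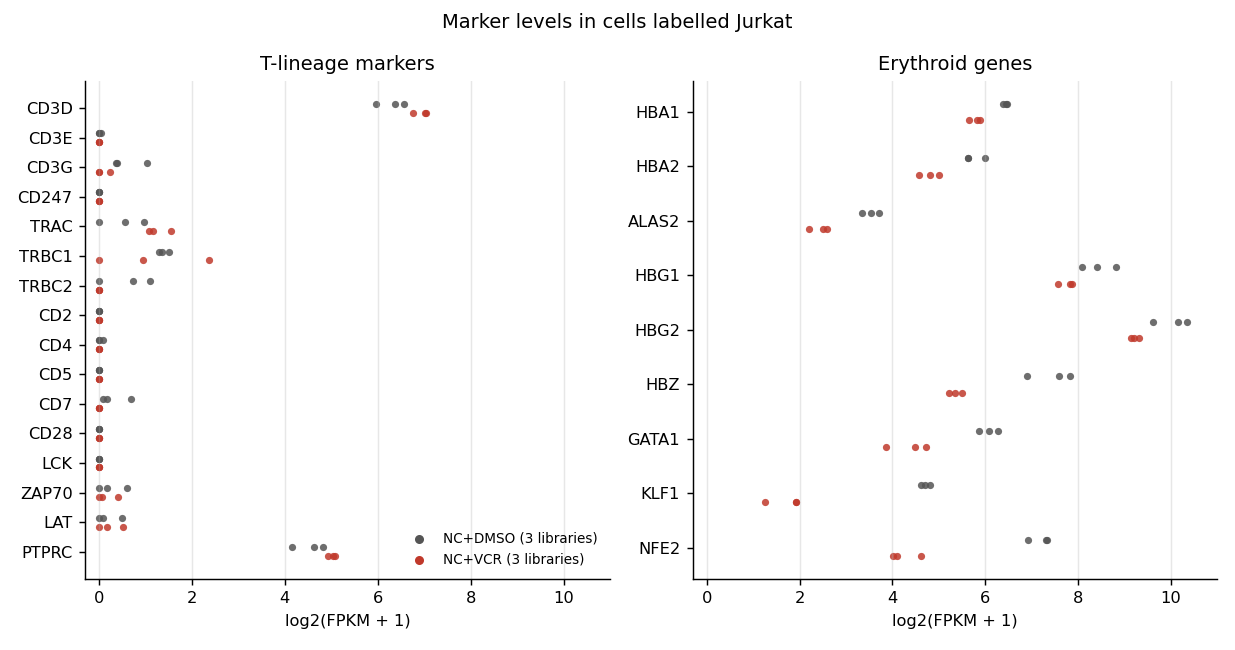
Level of 16 T-lineage markers (left) and 9 erythroid genes (right) on log2(FPKM + 1), with a point for each of 3 NC+DMSO (grey) and 3 NC+VCR (red) libraries. On the left CD3D and PTPRC lie far above the rest, while on the right each of the 9 genes is present and its VCR points lie below its DMSO points.

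In the comparison of NC+VCR with NC+DMSO, limma called 4184 of 11675 genes at an adjusted p under 0.05, or 35.8%, and 5402 had an unadjusted p under 0.05. Of the 4184, 908 were higher with VCR (7.78% of genes tested) and 3276 lower (28.1%). The log2 difference was at least 1 in size in 376 of the higher and 1534 of the lower genes. FPKM is relative to the library sum, and the median difference over all genes was -0.36 on log2(FPKM + 1). When libraries were instead scaled to the median ratio, which brought that median to -0.04, 1715 genes were higher (14.7%) and 1348 lower (11.5%), so the higher share of calls moved from 21.7% to 56.0%. Of the genes called with the deposited values, 907 of 908 higher and 1348 of 3276 lower genes were also called in the same direction with median ratio scaling, and 0 in the opposite one. Counts below are given for the deposited values and then for median ratio scaling. The shares of all genes tested to set beside them are 7.78% higher and 28.1% lower, and 14.7% and 11.5% with median ratio scaling. The VCR and DMSO values were fully separate in 1177 higher genes (10.1%) and 3930 lower genes (33.7%).

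**Figure D2:**
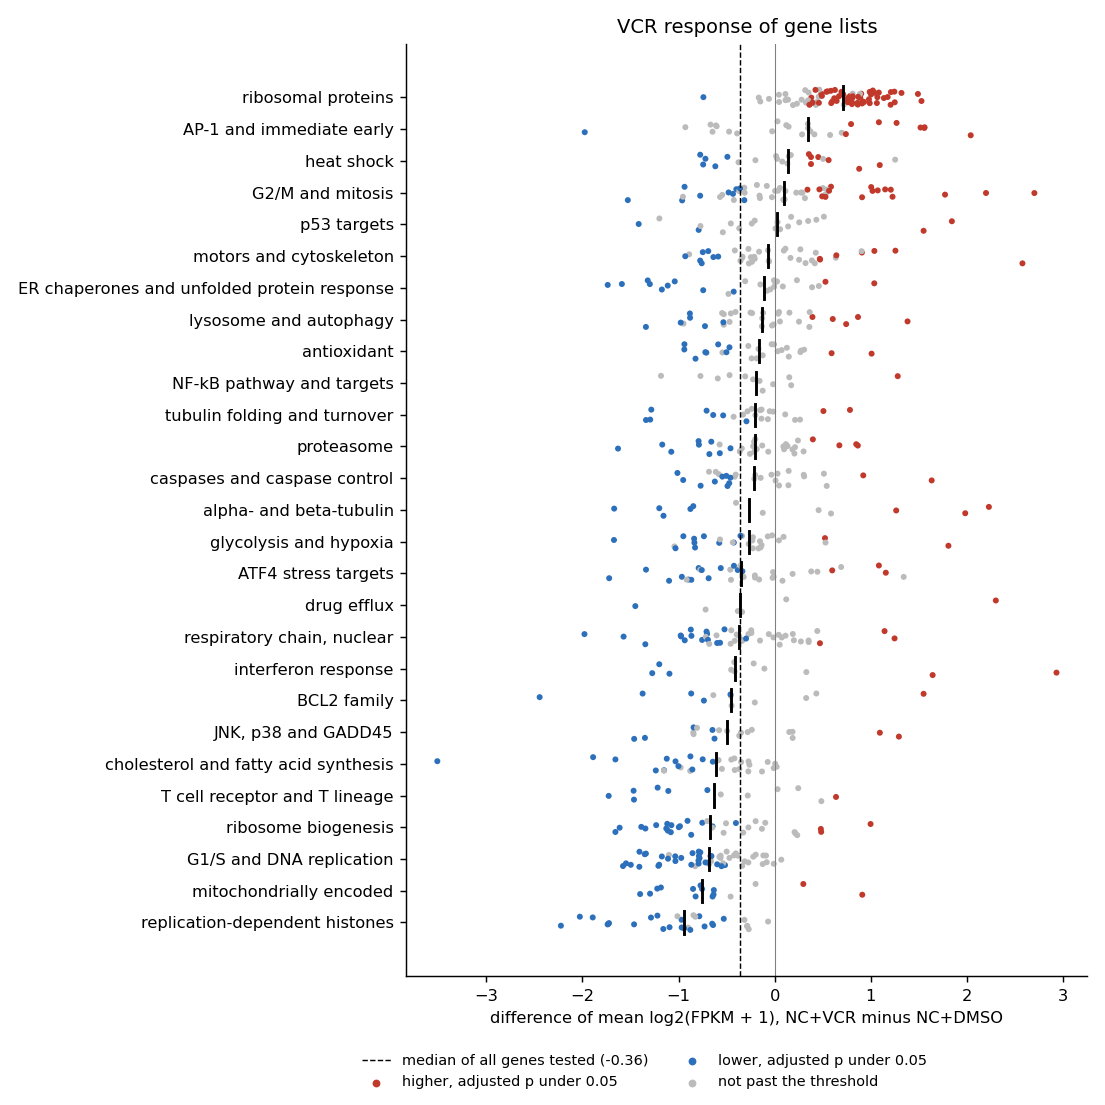
Difference of mean log2(FPKM + 1), NC+VCR minus NC+DMSO, for the kept members of 27 gene lists, ordered by their median (black bar). Red and blue points passed an adjusted p of 0.05 as higher and lower, grey points did not, and the dashed line is the median of all 11675 genes, -0.36. Ribosomal protein genes lie highest (median 0.71) and replication-dependent histone genes lowest (median -0.94).

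Tubulin genes, the drug's own target family, split by isotype. Of 17 listed alpha- and beta-tubulins 12 were kept, and 3 rose and 5 fell (3 and 2 with median ratio scaling). The median was -0.26. The minor beta isotype TUBB2B was at 8.97, 9.78 and 7.31 FPKM in NC+DMSO and 46.2, 42.2 and 43.9 in NC+VCR, with log2 fold change 2.23 ± 0.14 (SE), adjusted p = 1.17e-06. Its neighbour TUBB2A was at 13.6, 14.9 and 11.3 FPKM in NC+DMSO and 63.8, 47.1 and 55.7 in NC+VCR, with log2 fold change 1.98 ± 0.16 (SE), adjusted p = 6.36e-06. For both genes every VCR library was above every DMSO library. TUBB6 was at 51.7, 45.9 and 50.6 FPKM in NC+DMSO and 184, 185 and 50.2 in NC+VCR, so the NC+VCR 3 library lay within the DMSO range, and its log2 fold change of 1.26 ± 0.40 (adjusted p = 0.0295) was no longer called when only the 6 NC libraries were fitted (adjusted p = 0.0771). In the PTPN21 cells the response of TUBB6 was -0.90, and the difference between the responses did not pass the test (adjusted p = 0.166). The main beta isotype, TUBB, was at 309.5, 356 and 293 FPKM in NC+DMSO and 172, 162 and 185 in NC+VCR, with log2 fold change -0.88 ± 0.10 (SE), adjusted p = 6.68e-05. The platelet isotype TUBB1 was at 4.06, 2.59 and 5.10 FPKM in NC+DMSO and 0.442, 0.281 and 0.863 in NC+VCR, with log2 fold change -1.67 ± 0.27 (SE), adjusted p = 0.000826. TUBB4B (-1.20), TUBB4A (-0.85) and TUBA1B (-1.16) were lower as deposited and not called with median ratio scaling. The summed beta-tubulin FPKM was 483 ± 38.5 (SD, n = 3) in NC+DMSO and 458 ± 56.4 in NC+VCR, a difference smaller than either SD, while the makeup of the sum differed. TUBB2A and TUBB2B together made up 4.53% ± 0.372 (SD, n = 3) of the beta-tubulin FPKM in NC+DMSO and 21.9% ± 2.61 in NC+VCR, and TUBB made up 66.0% ± 1.503 and 38.3% ± 6.76. The TUBB2A and TUBB2B genes are close paralogs, so reads may be split between them.

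The first 30 coding bases of beta-tubulins that rose and fell are shown because TTC5 reads the residues they encode. The first 12 bases, which encode the recognised residues, are in capitals. The sequences were read from GENCODE 29 transcripts (GRCh38).
TUBB2A (higher; chr6:3157434-3157463, minus strand): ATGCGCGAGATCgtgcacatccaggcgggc
TUBB2B (higher; chr6:3227514-3227543, minus strand): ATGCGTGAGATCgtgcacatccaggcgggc
TUBB6 (higher; chr18:12308293-12308322, plus strand): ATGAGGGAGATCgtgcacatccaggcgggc
TUBB (lower; chr6:30720507-30720536, plus strand): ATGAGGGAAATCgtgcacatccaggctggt
TUBB4B (lower; chr9:137241361-137241390, plus strand): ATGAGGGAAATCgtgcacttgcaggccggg
TUBB4A (lower; chr19:6502183-6502212, minus strand): ATGCGGGAGATCgtgcacctgcaggccggc
TUBB1 (lower; chr20:59019523-59019552, plus strand): ATGCGTGAAATTgtccatattcagattggc
The capitals differed among the isotypes that were higher and among those that were lower, where they were alike in TUBB and TUBB4B. These differences leave the encoded residues unchanged: every isotype shown starts with methionine, arginine, glutamate and isoleucine. The residues that TTC5 reads were thus the same in both directions, and this comparison could not separate them.

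Of 23 kept genes for tubulin folding and turnover, 2 rose and 7 fell (5 and 3 with median ratio scaling, median -0.20). The 8.70% higher and 30.4% lower lie near the 7.78% and 28.1% of all genes tested. TTC5 itself was at 3.94, 3.90 and 4.50 FPKM in NC+DMSO and 0.527, 0.779 and 2.31 in NC+VCR, with log2 fold change -1.29 ± 0.30 (SE), adjusted p = 0.00589; it overlaps another annotated gene on its strand. The tubulin tyrosine ligase TTL was lower by 1.28 on the log2 scale, and the microtubule-destabilising stathmin STMN3 by 1.34, both also called with median ratio scaling. The microtubule plus-end protein MAPRE1 rose, at 53.2, 47.98 and 58.9 FPKM in NC+DMSO and 93.9, 98.4 and 84.7 in NC+VCR (log2 fold change 0.78 ± 0.14 (SE), adjusted p = 0.00163). The tubulin cofactor TBCA rose by 0.51, which was lost with the 6 NC libraries alone (adjusted p = 0.0635).

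**Figure D3:**
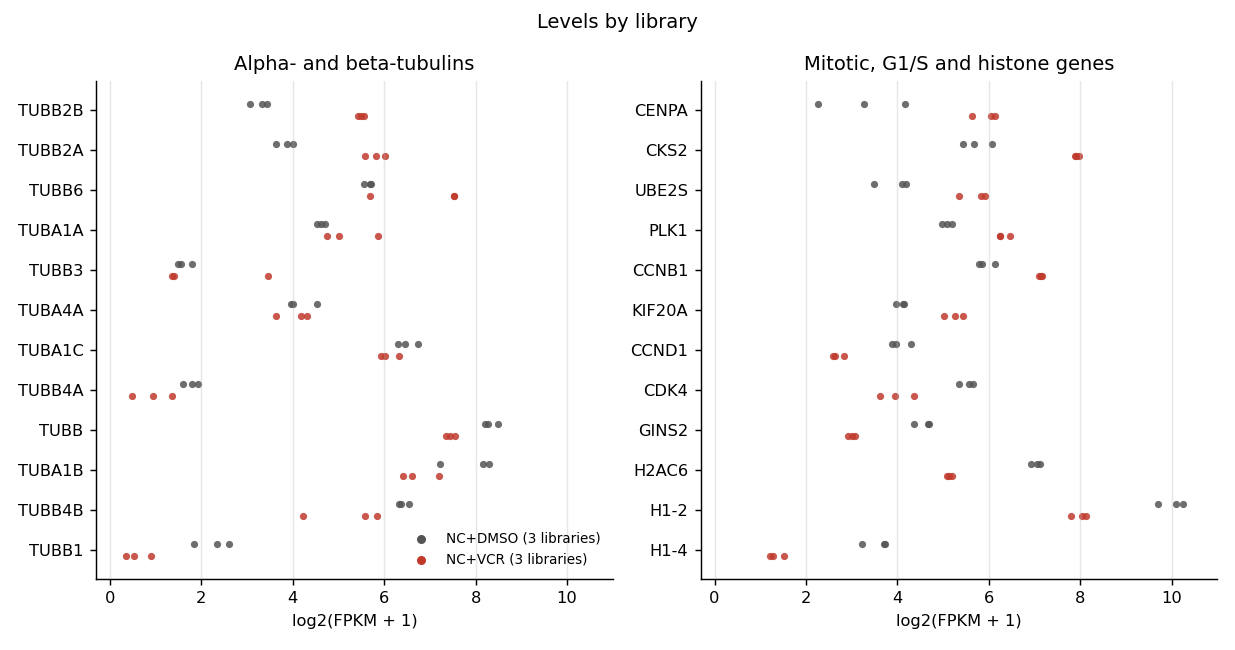
Level on log2(FPKM + 1) of the 12 kept tubulins (left) and of 12 mitotic, G1/S and histone genes (right), with a point for each of 3 NC+DMSO (grey) and 3 NC+VCR (red) libraries, ordered by log2 fold change. The VCR points of TUBB2B and TUBB2A lie right of the DMSO points, those of TUBB and TUBB1 lie left, and the right panel runs from CENPA, higher with VCR, to the linker histone H1-4, lower with VCR.

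Genes of G2 phase and mitosis were higher relative to the rest. Of 51 kept members, 16 rose and 9 fell as deposited, and 26 rose and 0 fell with median ratio scaling, so the lower calls depended on the scaling. The 16 are 31.4% of the list, against 7.78% higher among all genes tested. The list median was 0.09. The cyclin CCNB1, partner of CDK1 at mitotic entry, was at 54.1, 69.8 and 56.3 FPKM in NC+DMSO and 143, 136 and 139 in NC+VCR, with log2 fold change 1.21 ± 0.14 (SE), adjusted p = 7.45e-05. The mitotic kinase PLK1 was at 30.3, 33.1 and 35.8 FPKM in NC+DMSO and 86.95, 74.6 and 74.5 in NC+VCR, with log2 fold change 1.23 ± 0.17 (SE), adjusted p = 0.00029. All VCR libraries were above all DMSO libraries for both. The largest rise was in CENPA, the histone of centromeres, at 3.79, 8.62 and 17.1 FPKM in NC+DMSO and 48.3, 64.8 and 69.3 in NC+VCR (log2 fold change 2.70 ± 0.41 (SE), adjusted p = 0.000496), followed by the CDK subunit CKS2, at 49.97, 66.2 and 42.5 FPKM in NC+DMSO and 236, 251 and 239.6 in NC+VCR (log2 fold change 2.20 ± 0.14 (SE), adjusted p = 1.27e-06), and the ubiquitin-conjugating enzyme UBE2S, at 10.3, 17.1 and 16.1 FPKM in NC+DMSO and 59.2, 39.9 and 55.6 in NC+VCR (log2 fold change 1.77 ± 0.20 (SE), adjusted p = 6.58e-05). CENPA and CKS2 each share bases with another annotated gene on their strand. In the PTPN21 cells the VCR response of CENPA was -0.50 (adjusted p = 0.396), and the difference between the responses had an adjusted p of 0.06. CDK1 itself was lower by 0.43 as deposited and by 0.04 with median ratio scaling (not called).

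The promoters of CCNB1, PLK1 and CENPA are shown because these 3 are among the 16 mitotic genes that rose. Each runs from 250 bases before to 50 bases after the start in RefSeq (GRCh38.p14), 5′ to 3′. Capitals mark the cell cycle element TTTGAA and the CCAAT box, searched on both strands, and no marked match overlapped another.
CCNB1 (chr5:69166900-69167199, plus strand): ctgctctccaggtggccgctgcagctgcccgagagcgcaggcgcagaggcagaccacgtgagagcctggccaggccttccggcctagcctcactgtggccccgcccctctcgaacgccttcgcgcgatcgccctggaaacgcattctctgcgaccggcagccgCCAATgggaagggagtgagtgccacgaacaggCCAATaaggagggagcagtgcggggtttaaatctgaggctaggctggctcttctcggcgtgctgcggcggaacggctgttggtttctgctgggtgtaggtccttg
PLK1 (chr16:23678639-23678938, plus strand): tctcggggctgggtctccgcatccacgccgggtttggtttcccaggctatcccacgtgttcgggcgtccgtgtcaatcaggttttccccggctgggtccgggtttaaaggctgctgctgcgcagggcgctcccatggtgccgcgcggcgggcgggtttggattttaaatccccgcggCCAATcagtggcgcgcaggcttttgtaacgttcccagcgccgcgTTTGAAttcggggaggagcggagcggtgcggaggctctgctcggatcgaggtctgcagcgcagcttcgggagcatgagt
CENPA (chr2:26785806-26786105, plus strand): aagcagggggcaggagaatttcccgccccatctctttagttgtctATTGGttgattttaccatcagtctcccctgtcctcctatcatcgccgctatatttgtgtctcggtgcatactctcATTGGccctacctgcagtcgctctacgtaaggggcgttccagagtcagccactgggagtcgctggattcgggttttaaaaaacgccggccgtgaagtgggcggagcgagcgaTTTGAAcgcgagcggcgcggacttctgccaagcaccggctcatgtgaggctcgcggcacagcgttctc
TTTGAA stood in 11 and CCAAT in 13 of the 16 promoters of mitotic genes that rose. Over the 43 kept mitotic genes with a RefSeq promoter the counts were 31 (72.1%) and 35 (81.4%). The shares were 9.6% and 37.9% over the promoters of all kept genes, and 15.4% and 35.7% over all 27305 promoters. The 6 mitotic genes with a promoter that were lower as deposited held TTTGAA in 4 and CCAAT in 6, so the letters did not separate the directions.

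Genes of G1/S and DNA replication that passed the test were lower as deposited. Of 53 kept members, 0 rose and 29 fell in limma (1 and 16 with median ratio scaling, median -0.68), and at an unadjusted p under 0.05 the counts were 0 and 34. The 29 are 54.7% of the list, against 28.1% lower among all genes. The replication factor GINS2 was at 24.9, 24.4 and 19.4 FPKM in NC+DMSO and 7.45, 7.001 and 6.51 in NC+VCR, with log2 fold change -1.58 ± 0.15 (SE), adjusted p = 2.39e-05. The G1 kinase CDK4 was at 46.6, 49.2 and 39.4 FPKM in NC+DMSO and 19.7, 11.2 and 14.3 in NC+VCR, with log2 fold change -1.55 ± 0.18 (SE), adjusted p = 8.73e-05. All 3 DMSO libraries were above all 3 VCR libraries for both. CDK4 shares bases with another annotated gene on its strand. Cyclin CCND1 (-1.35), the helicase subunit MCM5 (-1.21) and the polymerase POLE (-1.41) fell with both scalings. MCM3, MCM4 and MCM7 were lower by 0.52 to 0.69 as deposited and were not called with median ratio scaling.

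The replication-dependent histones, whose mRNAs are made in S phase, gave the lowest list median, -0.94. Of 29 kept genes (of 50 listed), 0 rose and 20 fell in limma (0 and 11 with median ratio scaling), or 68.97% lower, and at an unadjusted p under 0.05 the counts were 0 and 23. The linker histone H1-2 was at 1097, 1218 and 833 FPKM in NC+DMSO and 279.7, 223 and 261 in NC+VCR, with log2 fold change -2.03 ± 0.14 (SE), adjusted p = 1.97e-06. H1-4 was at 12.1, 12.3 and 8.38 FPKM in NC+DMSO and 1.43, 1.87 and 1.31 in NC+VCR, with log2 fold change -2.22 ± 0.23 (SE), adjusted p = 4.05e-05, and the core histone H2AC6 at 131, 137 and 121 FPKM in NC+DMSO and 32.8, 34.2 and 35.5 in NC+VCR, with log2 fold change -1.89 ± 0.10 (SE), adjusted p = 3.53e-07. Most mRNAs of this family lack a poly(A) tail, and the library selection is not given in the sources used here. Histone genes took 0.312% ± 0.0279 (SD, n = 3) of the library FPKM sum in NC+DMSO and 0.0951% ± 0.00404 in NC+VCR.

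Most ribosomal protein genes rose. Of 79 kept, 55 rose and 1 fell (70 and 0 with median ratio scaling), with a median of 0.71. That is 69.6% higher, against 7.78% of all genes. They took 24.4%, 26.2% and 20.7% of the FPKM sum in the NC+DMSO libraries and 35.2%, 36.1% and 35.5% in the NC+VCR libraries, 1.496 times as much. An exact two-sided permutation test gave p = 0.1, the smallest that 3 against 3 libraries allow. RPL26 was 2.90 times and RPL22 2.74 times as high with VCR (log2 fold changes 1.53 and 1.49), and both overlap other annotated genes on their strand. In the PTPN21 cells RPL22 went the other way (-0.71), and the difference between the responses was 2.20 ± 0.35 (adjusted p = 0.0361). RPS20 (log2 fold change 1.32 ± 0.15 (SE), adjusted p = 6.66e-05) and RPL12 (1.14) rose as well, while RPS26 was lower by 0.74 as deposited and not called with median ratio scaling. Genes that build ribosomes did not follow: of 32 kept, 3 rose and 17 fell (6 and 11 with median ratio scaling, median -0.68). The nucleolar protein NOP2 was at 55.7, 58.95 and 57.2 FPKM in NC+DMSO and 26.8, 9.37 and 22.96 in NC+VCR (log2 fold change -1.61 ± 0.28 (SE), adjusted p = 0.00108) and the RNA polymerase I factor UBTF at 37.1, 50.8 and 48.1 FPKM in NC+DMSO and 16.8, 17.4 and 15.5 in NC+VCR (log2 fold change -1.39 ± 0.16 (SE), adjusted p = 9.77e-05).

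Mitochondrially encoded mRNAs gave the largest losses of FPKM. Of 15 kept mitochondrial genes, 11 fell and 2 rose (6 and 2 with median ratio scaling, median -0.76). The 13 mRNAs took 10.0%, 10.1% and 9.27% of the FPKM sum in NC+DMSO and 4.63%, 5.06% and 5.26% in NC+VCR, 0.509 times as much. The ratio for the 2 ribosomal RNAs was 1.17, from 1.16% ± 0.140 to 1.35% ± 0.104 (exact p = 0.2). Cytochrome b, MT-CYB, was 0.376 times as high (log2 fold change -1.40 ± 0.11 (SE), adjusted p = 4.91e-06), and the complex I subunit MT-ND2 0.428 times (log2 fold change -1.22 ± 0.10 (SE), adjusted p = 8.37e-06). Of the ribosomal RNAs MT-RNR1 was at 376, 337 and 273 FPKM in NC+DMSO and 544, 646 and 657 in NC+VCR, with log2 fold change 0.91 ± 0.14 (SE), adjusted p = 0.000612. MT-CO1, MT-CO2 and MT-ND1 were lower by 0.63 to 0.65 and were not called with median ratio scaling. Among 45 nuclear-encoded respiratory subunits 3 rose and 16 fell (8 and 6 with median ratio scaling, median -0.38). COX8A was at 168, 188 and 138 FPKM in NC+DMSO and 43.9, 32.3 and 47.7 in NC+VCR (log2 fold change -1.98 ± 0.15 (SE), adjusted p = 4.17e-06) and ATP5F1B, the catalytic subunit of ATP synthase, at 302, 314 and 272 FPKM in NC+DMSO and 109, 119 and 119 in NC+VCR (log2 fold change -1.35 ± 0.10 (SE), adjusted p = 4.91e-06). COX4I1 rose, at 221, 264 and 285 FPKM in NC+DMSO and 605, 629 and 588 in NC+VCR (log2 fold change 1.25 ± 0.11 (SE), adjusted p = 1.15e-05).

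**Figure D4:**
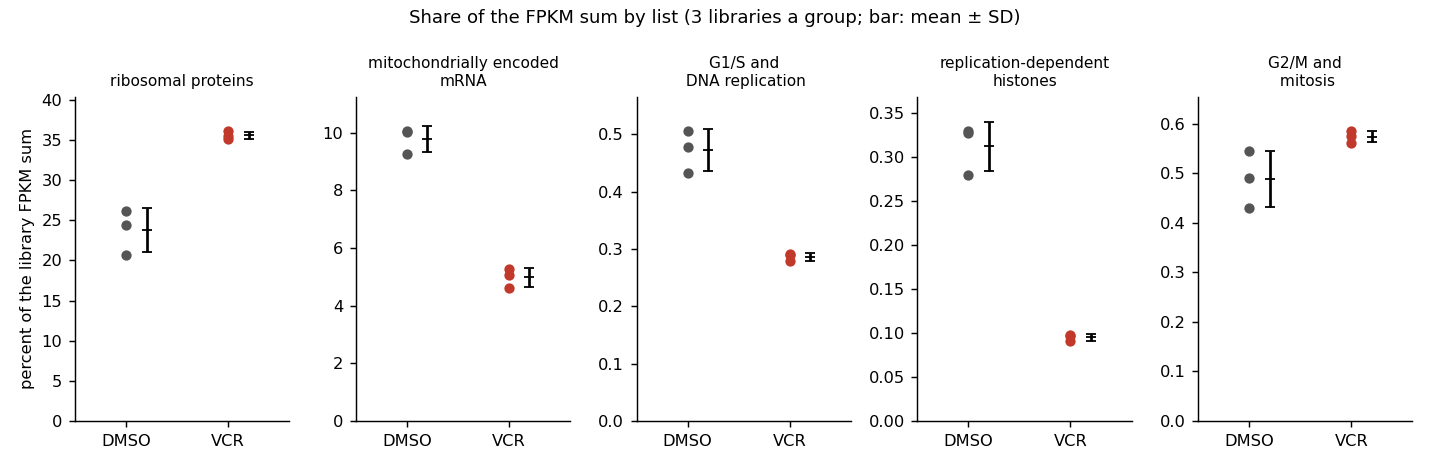
Percent of the library FPKM sum taken by 5 groups of genes in each of 3 NC+DMSO (grey) and 3 NC+VCR (red) libraries, with mean ± SD beside the points and each axis starting at 0. Ribosomal proteins and the G2/M list lie higher with VCR, and mitochondrial mRNAs, G1/S genes and histones lie lower, with no overlap between the groups in any of the 5.

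Immediate early and AP-1 genes, which answer stress and growth signals within minutes, rose more often than they fell. Of 27 kept, 8 rose, or 29.6%, and 1 fell (10 and 1 with median ratio scaling, median 0.35). JUN, the AP-1 subunit that JNK phosphorylates, was at 24.1, 26.7 and 35.8 FPKM in NC+DMSO and 139.8, 101 and 122 in NC+VCR, with log2 fold change 2.04 ± 0.16 (SE), adjusted p = 5.73e-06. KLF6 (1.56), the phosphatase DUSP1 (1.55) and IER5 (1.52) rose in the same way, and ATF3 was at 43.8, 39.2 and 49.4 FPKM in NC+DMSO and 93.7, 88.8 and 100.5 in NC+VCR (log2 fold change 1.08 ± 0.13 (SE), adjusted p = 0.000131). IER2 fell, at 15.6, 21.3 and 23.6 FPKM in NC+DMSO and 5.38, 3.16 and 4.61 in NC+VCR (log2 fold change -1.98 ± 0.26 (SE), adjusted p = 0.000186), and rose by 1.33 in the PTPN21 cells. Genes of the JNK, p38 and GADD45 modules themselves gave 2 of 19 higher (10.5%) and 5 lower (26.3%), near the 7.78% and 28.1% of all genes (2 and 2 with median ratio scaling, median -0.50). DAXX was at 66.2, 75.4 and 89.2 FPKM in NC+DMSO and 162, 168 and 162 in NC+VCR (log2 fold change 1.09 ± 0.14 (SE), adjusted p = 0.000188), and the p38 kinase MAPK12 fell by 1.46. The AP-1 motif TGANTCA stood in 0 of the 6 promoters of higher members and in 1 of 20 (5.0%) over the kept members. It stood in 4.22% of the promoters of all kept genes and in 7.76% of all promoters.

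The study named 12 genes for its own measurements, so their direction is not independent evidence. Of these, PTPN21 and BCL2 were under the mean of 1 FPKM, 2 rose and 3 fell (2 and 1 with median ratio scaling). JUN and CCNB1 rose, as above. In the study's Western blots VCR lowered Cyclin B1, the protein of CCNB1, and raised GADD45A protein. Those are protein levels and the values here are RNA. The study also measured GADD45A mRNA by RT-qPCR. The comparison its text reports is PTPN21 against control cells under VCR, not VCR against DMSO. Its discussion ties VCR-induced apoptosis to an increase in GADD45A expression. How these findings relate to the RNA values here was not tested. Among those that fell, PARP1, which repairs DNA breaks, was lower by 0.50 and CDK1 by 0.43 as deposited, both not called with median ratio scaling. GADD45A, a stress gene of growth arrest, was at 97.4, 102 and 131 FPKM in NC+DMSO and 90.2, 78.99 and 83.9 in NC+VCR, with log2 fold change -0.37 ± 0.14 (SE), adjusted p = 0.0579, and its direction turned with median ratio scaling (0.02). ATF4 was at 26.3, 302 and 246 FPKM in NC+DMSO and 314, 312 and 336 in NC+VCR, with log2 fold change 1.34 ± 0.91 (SE), adjusted p = 0.266; within NC+DMSO its libraries differed by over 10 times. MAPK8 (-0.85) and BAX (-0.46) did not pass the test.

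Genes of cell death moved in both directions, with counts that depended on the scaling. Of 12 kept BCL2-family genes, 1 rose and 5 fell (2 and 2 with median ratio scaling). That is 8.33% higher and 41.7% lower as deposited, against 7.78% and 28.1% of all genes tested. The BH3-only gene PMAIP1 was at 20.4, 14.9 and 19.2 FPKM in NC+DMSO and 49.5, 60.9 and 53.98 in NC+VCR, with log2 fold change 1.55 ± 0.17 (SE), adjusted p = 7.13e-05, and the antiapoptotic BCL2L1 at 34.7, 35.98 and 68.3 FPKM in NC+DMSO and 9.78, 4.32 and 8.89 in NC+VCR, with log2 fold change -2.44 ± 0.30 (SE), adjusted p = 0.000114. The ranges of the groups did not overlap for either gene. BAD, a proapoptotic member, was at 24.03, 30.8 and 20.6 FPKM in NC+DMSO and 8.44, 10.5 and 8.09 in NC+VCR (log2 fold change -1.37 ± 0.20 (SE), adjusted p = 0.000423). Of 29 genes for caspases and their control, 2 rose and 9 fell as deposited, while 4 rose and 0 fell with median ratio scaling. The 31.0% lower lies near the 28.1% of all genes. The TNF receptor TNFRSF1A rose by 0.92. Of 20 kept p53 targets, 2 rose and 2 fell (6 and 1 with median ratio scaling), or 10.0% each way as deposited. The CDK inhibitor CDKN1A was at 0.762, 0.222 and 0.985 FPKM in NC+DMSO and 4.09, 4.23 and 6.41 in NC+VCR (log2 fold change 1.84 ± 0.28 (SE), adjusted p = 0.00048), and PMAIP1 belongs to this list as well. FDXR fell by 1.42.

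Erythroid markers fell as deposited. All 4 kept erythroid markers were lower as deposited and 2 with median ratio scaling. The heme-synthesis enzyme ALAS2 was at 10.6, 12 and 9.22 FPKM in NC+DMSO and 4.99, 3.59 and 4.71 in NC+VCR (log2 fold change -1.10 ± 0.17 (SE), adjusted p = 0.000565). Among the largest falls of all coding genes were the erythroid factors KLF1, at 23.4, 26.9 and 24.9 FPKM in NC+DMSO and 2.80, 2.80 and 1.39 in NC+VCR (log2 fold change -3.00 ± 0.19 (SE), adjusted p = 1.27e-06), and NFE2, at 161, 158 and 120.0 FPKM in NC+DMSO and 16.2, 15.1 and 23.4 in NC+VCR (log2 fold change -2.95 ± 0.20 (SE), adjusted p = 1.51e-06), and the iron exporter SLC40A1, at 17.7, 17.8 and 18 FPKM in NC+DMSO and 2.22, 1.02 and 1.68 in NC+VCR (log2 fold change -2.86 ± 0.23 (SE), adjusted p = 5.91e-06). Genes chosen after their values were seen went the same way: GATA1 fell by 1.72, GFI1B by 2.77, HEMGN by 2.77, the transferrin receptor TFRC by 2.13 and HBZ by 2.08, all called with both scalings. HBG1 and HBG2 were lower by 0.68 and 0.82 and not called with median ratio scaling, and HBE1, at 19.5, 26.5 and 27.1 FPKM in NC+DMSO and 30.4, 28.3 and 46.8 in NC+VCR, was not called as deposited and was higher with median ratio scaling (0.87). In bulk RNA, fewer cells of a type and less RNA per cell cannot be told apart. Of the 12 kept genes in the list of T-cell receptor and T-lineage genes, 1 rose and 6 fell (2 and 4 with median ratio scaling). CD3D rose by 0.64, and the members that fell were the hematopoietic regulators TAL1 (-1.22), LMO2 (-1.11), MYB (-0.70) and RUNX1 (-1.46), the NOTCH target HES1 (-1.47) and the adaptor FYB1 (-1.73); LMO2 and MYB were not called with median ratio scaling.

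Keratins, the filament proteins of epithelia, were higher. Of 5 kept epithelial markers, 3 rose and 1 fell (4 and 1 with median ratio scaling). KRT18 was at 159, 147 and 91.9 FPKM in NC+DMSO and 436, 379 and 337 in NC+VCR (log2 fold change 1.56 ± 0.18 (SE), adjusted p = 7.45e-05), KRT8 at 362, 291 and 236 FPKM in NC+DMSO and 709, 895 and 726 in NC+VCR (log2 fold change 1.40 ± 0.19 (SE), adjusted p = 0.000242) and KRT19 at 212, 268 and 216 FPKM in NC+DMSO and 494, 438 and 542 in NC+VCR (log2 fold change 1.08 ± 0.12 (SE), adjusted p = 6.07e-05), while the RNA-binding protein LIN28B fell by 1.44. The summed level of the 7 epithelial markers was 619 to 812 FPKM in NC+DMSO and 1698 to 1800.0 in NC+VCR, with PAX2 at 0 in every library; the part of these markers in the other results was not tested. Of 40 motor and cytoskeletal genes, 7 rose and 7 fell (13 and 0 with median ratio scaling). The intermediate filament VIM was at 204, 205 and 189.6 FPKM in NC+DMSO and 1315, 1012 and 1276 in NC+VCR (log2 fold change 2.58 ± 0.12 (SE), adjusted p = 1.21e-07), and the actin gene ACTG1 at 194, 217 and 194 FPKM in NC+DMSO and 503, 425 and 523 in NC+VCR (log2 fold change 1.25 ± 0.11 (SE), adjusted p = 1.15e-05). The galectin LGALS1, chosen after its values were seen, was at 26.5, 28.9 and 24.1 FPKM in NC+DMSO and 215, 249 and 240.5 in NC+VCR.

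Heat shock genes, which encode chaperones, moved in both directions. Of 22 kept, 7 rose and 5 fell (12 and 1 with median ratio scaling, median 0.14). The small heat shock protein HSPB1 was at 479.8, 551 and 466 FPKM in NC+DMSO and 1170.0, 975 and 1050.0 in NC+VCR (log2 fold change 1.09 ± 0.14 (SE), adjusted p = 0.000203), and the cochaperone STIP1 rose by 0.56. Of 24 endoplasmic reticulum chaperones and stress genes, 2 were higher (8.33%) and 9 lower (37.5%), against 7.78% and 28.1% of all genes (6 and 7 with median ratio scaling). The disulfide isomerase PDIA4 was at 170.2, 182 and 174 FPKM in NC+DMSO and 66.2, 51.4 and 56.1 in NC+VCR (log2 fold change -1.59 ± 0.11 (SE), adjusted p = 2.73e-06), CALR fell by 1.11, and the stress kinase EIF2AK3 rose by 1.03. Of 34 ATF4 targets, 3 rose and 13 fell (7 and 4 with median ratio scaling), among them the serine-synthesis enzyme PSAT1, at 53.2, 44.5 and 45.2 FPKM in NC+DMSO and 21.5, 20.1 and 23.3 in NC+VCR (log2 fold change -1.10 ± 0.13 (SE), adjusted p = 7.59e-05), and the mTORC1 inhibitor DDIT4, at 443, 534 and 589 FPKM in NC+DMSO and 267, 250.1 and 278 in NC+VCR (log2 fold change -0.97 ± 0.11 (SE), adjusted p = 9.34e-05). The composite C/EBP-ATF motif TGATGNAA stood in 5 of the 13 promoters of ATF4 targets that were lower and in 1 of 2 that were higher. It stood in 9 of 27 (33.3%) of all kept targets with a promoter, so it did not mark the lower ones. The share was 1.56% over the promoters of all kept genes and 3.67% over all promoters.

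Genes of lipid synthesis that passed the test were lower. Of 30 kept genes for cholesterol and fatty acid synthesis, 0 rose and 12 fell in limma (0 and 6 with median ratio scaling, median -0.61), and at an unadjusted p under 0.05 the counts were 0 and 16. The 12 are 40.0% of the list, against 28.1% lower among all genes tested. Fatty acid synthase FASN was at 9.42, 15.1 and 17.3 FPKM in NC+DMSO and 3.45, 1.81 and 3.84 in NC+VCR (log2 fold change -1.89 ± 0.26 (SE), adjusted p = 0.000297), and the sterol enzyme SQLE at 49.98, 43.1 and 50.4 FPKM in NC+DMSO and 21.4, 20.8 and 21.9 in NC+VCR (log2 fold change -1.12 ± 0.14 (SE), adjusted p = 0.000111). CYP51A1 had the largest fall of the list, at 12.8, 11.1 and 17.6 FPKM in NC+DMSO and 0.345, 0.383 and 0.121 in NC+VCR, but AC000120.3, which overlaps it on the same strand, was at 0 in the 3 DMSO libraries and at 5.41, 7.38 and 5.98 FPKM in the VCR libraries, so the pair's reads cannot be told apart here. Of 29 glycolysis and hypoxia genes, 2 rose and 10 fell (3 and 3 with median ratio scaling), with ADM at 1.30, 1.32 and 0.915 FPKM in NC+DMSO and 5.41, 5.39 and 9.65 in NC+VCR (log2 fold change 1.81 ± 0.26 (SE), adjusted p = 0.000326) and ALDOC lower by 1.67. Counts were 4 higher and 9 lower of 33 proteasome genes (11 and 2 with median ratio scaling), 5 and 6 of 32 lysosome and autophagy genes (10 and 2) and 2 and 8 of 25 antioxidant genes (4 and 3). The lower shares were 34.5% for glycolysis and hypoxia, 27.3% for proteasome, 18.8% for lysosome and autophagy and 32.0% for antioxidant genes. The higher shares, in the same order, were 6.90%, 12.1%, 15.6% and 8.0%. Over all genes tested 28.1% were lower and 7.78% higher. PSMD4 (0.85) and TALDO1 (0.59) rose, and PSMA6 (-1.08), CTSC (-1.34) and catalase CAT (-0.82) fell with both scalings.

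Of 11 kept interferon-response genes, 2 rose and 3 fell, with the same counts under both scalings. The DNA sensor IFI16 was at 4.66, 2.73 and 3.07 FPKM in NC+DMSO and 33.1, 31.98 and 32.7 in NC+VCR, with log2 fold change 2.93 ± 0.24 (SE), adjusted p = 7.95e-06, and STING1, which acts downstream of DNA sensing, at 7.77, 9.68 and 9.93 FPKM in NC+DMSO and 2.90, 3.96 and 4.44 in NC+VCR, with log2 fold change -1.09 ± 0.23 (SE), adjusted p = 0.00396. Of 12 NF-kB genes, 1 rose and 0 fell in limma, with the same counts under median ratio scaling and at an unadjusted p under 0.05, and the one that rose was the chemokine CXCL8, at 2.65, 0.649 and 1.04 FPKM in NC+DMSO and 7.05, 4.11 and 3.27 in NC+VCR (log2 fold change 1.28 ± 0.35 (SE), adjusted p = 0.0146). Of 6 kept drug efflux genes 1 rose and 1 fell with both scalings. ABCB1, the pump that exports vinca alkaloids, was at 0.101, 0.0266 and 0.0475 FPKM in NC+DMSO and 4.41, 5.04 and 3.31 in NC+VCR, with log2 fold change 2.30 ± 0.27 (SE), adjusted p = 9.49e-05. Every VCR library was above every DMSO library, although the level stayed low. ABCC1 was at 2.81, 3.81 and 11.5 FPKM in NC+DMSO and 1.68, 0.784 and 1.34 in NC+VCR (log2 fold change -1.45 ± 0.38 (SE), adjusted p = 0.0122), and its fall was not called with the 6 NC libraries alone (adjusted p = 0.0513).

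The largest rise among coding genes was PAEP (ENSG00000122133, chr9:135561756-135566955 in GENCODE 29), a secreted lipocalin of the endometrium, at 0.431, 1.77 and 0.410 FPKM in NC+DMSO and 139, 139 and 156 in NC+VCR, with log2 fold change 6.36 ± 0.26 (SE), adjusted p = 6.64e-08. The adhesion receptor CD44 was at 0.174, 0.228 and 0.913 FPKM in NC+DMSO and 15.6, 30.4 and 14.5 in NC+VCR (log2 fold change 3.84 ± 0.29 (SE), adjusted p = 4.03e-06), the plasminogen activator PLAT at 0.522, 0.730 and 0.296 FPKM in NC+DMSO and 22.1, 12.4 and 17.2 in NC+VCR (log2 fold change 3.56 ± 0.28 (SE), adjusted p = 4.91e-06), and the growth factor HBEGF at 0.488, 0.624 and 0.0294 FPKM in NC+DMSO and 13.6, 13.3 and 9.22 in NC+VCR (log2 fold change 3.25 ± 0.27 (SE), adjusted p = 7.89e-06). KRT17 was listed at 0 in the 3 DMSO libraries and was at 12.97, 7.85 and 12.3 FPKM with VCR. CLU (3.78), AIM2 (3.54), YPEL4 (3.47), CPA4 (3.35), OPN3 (3.24) and FCRLA (3.18) completed the largest rises with PRNP, and of the 12 CD44, CLU, AIM2 and OPN3 share bases with another annotated gene on their strand. The prion protein gene PRNP was at 0.0660, 0.0889 and 0.0664 FPKM in NC+DMSO and 23.4, 24.96 and 25.8 in NC+VCR (log2 fold change 4.58 ± 1.25 (SE), adjusted p = 0.0142), yet in the PTPN21 cells it ranged from 0.0159 to 40.3 FPKM with DMSO and from 0.0451 to 20.2 with VCR.

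Apart from KLF1, NFE2, SLC40A1 and CYP51A1, described above, the largest falls were TIMM10B (-3.75), MRM2 (-3.65), PIM2 (-3.61), IFI30 (-3.55), SMIM1 (-3.27), QPRT (-3.23), CHAMP1 (-3.13) and ARHGAP22 (-2.99). Of these, TIMM10B, IFI30, QPRT and ARHGAP22 share bases with another annotated gene on their strand, as do NOP2, COX8A, DAXX, MAPK12, RUNX1, FYB1, PSMA6, CALR and ALDOC above. AC084337.2, which overlaps TIMM10B, was at 0.0858, 0.0731 and 0.0566 FPKM in NC+DMSO and 8.51, 0.0443 and 9.52 in NC+VCR. How reads were split between this pair cannot be told here. In the PTPN21 cells the fall of TIMM10B was not called (-0.82, adjusted p = 0.154 in limma). The survival kinase PIM2 was at 32.6, 38.5 and 36.2 FPKM in NC+DMSO and 2.73, 1.74 and 1.64 in NC+VCR, with log2 fold change -3.61 ± 0.25 (SE), adjusted p = 1.85e-06. IFI30 was at 186, 255 and 160.5 FPKM in NC+DMSO and 0.132, 58.1 and 71.3 in NC+VCR. QPRT was at 116, 117 and 109 FPKM in NC+DMSO and 6.52, 1.68 and 89.8 in NC+VCR. In each gene a single VCR library lay far from the others, the lowest for IFI30 and the highest for QPRT. All VCR libraries were below all DMSO libraries, but neither gene was called with the 6 NC libraries alone (adjusted p = 0.0962 and 0.0607 in limma). AC007192.1, which overlaps IFI30, was at 13.7 FPKM in the NC+VCR 1 library, where IFI30 was lowest, and at 0.789 and 0.341 in the others. FAM178B had the largest loss of mean FPKM outside the mitochondrial genome, at 1305, 1609 and 1162 FPKM in NC+DMSO and 227, 193 and 228 in NC+VCR (log2 fold change -2.64 ± 0.13 (SE), adjusted p = 2.03e-07).

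The same contrast in the PTPN21 cells, which shares no library with the NC contrast, called 1051 genes higher (9.0%) and 2194 lower (18.8%). Of the genes higher in NC cells, 574 (63.2% of the NC list and 54.6% of the PTPN21 list) were higher in both, and of those lower, 1575 (48.1% and 71.8%). In the opposite direction were 12 and 5 genes. TUBB2A (1.999), TUBB2B (2.20), CCNB1 (1.03), JUN (1.85), H1-2 (-1.93), NFE2 (-2.23) and PAEP (5.81) were called in the same direction in the PTPN21 cells. The difference between the responses passed an adjusted p of 0.05 in 15 genes (0.128%), 12 with the more positive response in NC cells and 3 with the more negative. The estimated depth was 20500000 to 23900000 fragments in the PTPN21 libraries, so depth and construct cannot be told apart.

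**Figure D5:**
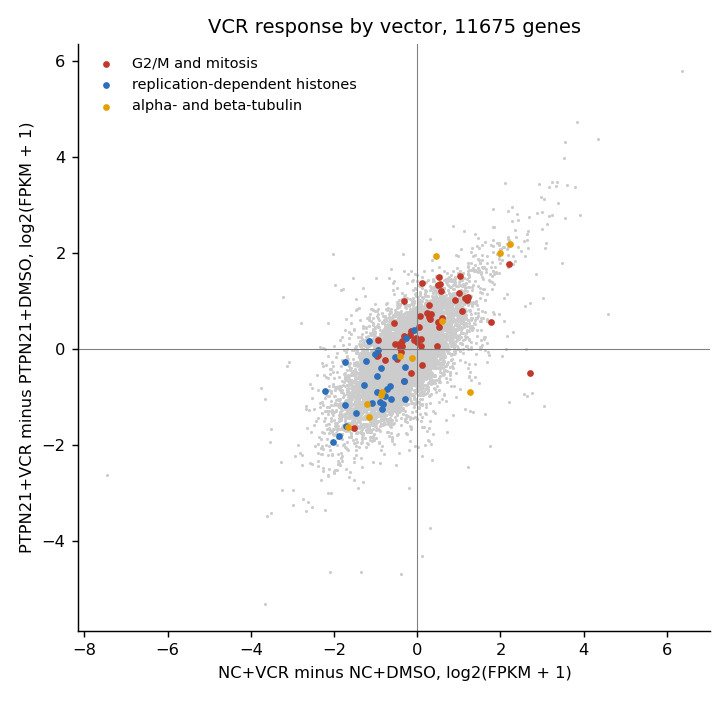
VCR response of 11675 genes as a difference of mean log2(FPKM + 1), in NC cells on the x axis and in PTPN21 cells on the y axis, with no library in common. Mitotic genes (red), replication-dependent histones (blue) and tubulins (orange) are marked on all genes (grey). TUBB2A and TUBB2B lie near 2 on both axes, and CENPA lies at 2.70 in NC cells and -0.50 in PTPN21 cells.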

How the data were processed

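RNA was sequenced from 12 libraries in 4 groups of 3 by an outside company. The authors deposited 1 table of FPKM values, 60671 genes by library, keyed by human Ensembl identifier, of which 58453 (96.3%) are in GENCODE 29. The submitters' processing notes list fastp, Bowtie2 and mm10, a mouse build that the identifiers do not match; the counting program, the library selection and any filter are not given in the sources used here, and the series' design text speaks of tag profiling. Coordinates are from GENCODE 29 (GRCh38).

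Values were put on the log2(FPKM + 1) scale, genes with a mean of at least 1 over the 6 NC libraries were kept, and limma 3.58.1 (R 4.3.3) with a mean trend was fitted to 4 group means over all 12 libraries, with Benjamini-Hochberg adjustment over 11675 genes and a threshold of 0.05. The SE and the adjusted p come from this model. It was also run on simulated data drawn with independent normal spread around the gene means. That run covers neither a scaling shift between groups nor spread of another shape. FPKM divides by the library sum, so a few abundant RNAs shift all others; the median ratio scaling multiplies each library by 1 factor over the kept genes. Groups and replicate numbers came from the labels. Single shares were compared with an exact two-sided permutation test in scipy 1.17.1. Named genes were the 12 largest rises and falls of coding genes with a mean of at least 5 in the higher group, up to 3 rises and 3 falls per list, the 10 largest gains and losses of mean FPKM, up to 5 differing responses each way and the study's own genes; not every one is described, and a few are not reported here. The members and lists were chosen with earlier results of these data known. Alternatives were the pseudocount, the filter, 4 scalings and corrections, the moderation, the libraries in the fit, a replicate block and each library left out.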

Additional observations from a re-analysis of the deposited data

Results flagged for a closer look

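The VCR response differed between NC and PTPN21 cells in 15 genes by the interaction test of limma (Benjamini-Hochberg adjusted over 11675 genes), and the 3 negative and the 5 largest positive differences are given here. IER2, an immediate early gene, had a response lower by 3.31 ± 0.36 (SE) on the log2 scale in NC than in PTPN21 cells, a difference of -3.31 (adjusted p = 0.00212). IER2 was at 15.6, 21.3 and 23.6 FPKM in NC+DMSO and 5.38, 3.16 and 4.61 in NC+VCR and at 2.66, 6.16 and 3.97 FPKM in PTPN21+DMSO and 12.5, 12.2 and 10.7 in PTPN21+VCR. FBXW7, a ubiquitin ligase subunit, differed by -2.07 (adjusted p = 0.0223), being at 17.4, 14.2 and 23.1 FPKM in NC+DMSO and 3.55, 4.37 and 5.25 in NC+VCR and at 7.64, 7.92 and 6.10 FPKM in PTPN21+DMSO and 9.87, 7.35 and 9.05 in PTPN21+VCR. ERGIC2, of the early secretory pathway, differed by -1.88 (adjusted p = 0.0361). Both fell in NC cells (FBXW7 -1.82, ERGIC2 -1.14) and had responses of 0.25 and 0.74 in PTPN21 cells.

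The 4 copies of MIR6724 and a Y_RNA gene differed in the other direction. MIR6724-4 differed by 4.22 (adjusted p = 0.000152), MIR6724-1 by 3.68 and MIR6724-3 by 3.50 (adjusted p = 0.00178 each), and MIR6724-2 by 3.61 (adjusted p = 0.000868). The Y_RNA gene ENSG00000200502 differed by 3.31 (adjusted p = 0.00291). All 4 MIR6724 copies were at 0 in the 3 NC+DMSO libraries. The copies are near-identical and short, so their FPKM values are not separate measurements. The other 7 were COA6, COX4I1, HSP90AA1, NGRN, RPL22, SLC2A1 and UBALD2, with differences from 0.74 to 2.20. The cause of these differences was not tested.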

How the results depend on the processing

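The 4184 calls fell to 2626 with only the 6 NC libraries, of which 2602 were shared, and ranged from 3175 (without NC+DMSO 3) to 4007 (without PTPN21+DMSO 1) when 1 library was left out. The higher share of calls, 21.7%, became 25.3% at a mean of at least 5 FPKM, 16.3% with TPM scaling, 56.0% with median ratio scaling, 52.4% with quantile normalization and 23.6% with the 6 libraries, and was 20.7% to 25% with 1 library left out. The 15 differing responses became 7 with no filter, 8 at a mean of at least 5 FPKM, 30 with quantile normalization, 7 without the trend and 37 with GC content and length trends removed, for which 99.3% of genes had values; with 1 library left out they ranged from 6 (without NC+DMSO 1) to 30 (without NC+DMSO 2). Replicate numbers did not pair the libraries: the same-numbered NC pairs correlated at -0.05 to 0.05 in their deviations from the group means. With the replicate block, 3781 genes were called, 3714 of them among the 4184, and 7 responses differed. The rise of NPM1 (0.48, adjusted p = 0.00137) turned to -0.011 with quantile normalization, and was called in the other 22 settings. Directions also turned in 3 uncalled genes: CD69 (0.36 median ratio, 0.30 quantile, -0.12 to 0.17 with 1 library left out), GADD45A (0.023, median ratio) and RPS27 (-0.12, quantile). The other settings for named genes kept direction and side of the threshold in 1856 values, lost the call in 124 and gained it in 3; with 1 library left out the counts were 2092, 97 and 2. The cause of these changes was not tested. FPKM holds no counts, so no counting interval was given, and genes near 1 FPKM rest on few reads.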

Other observations

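A few RNAs outside the lists, chosen after their values were seen, differed widely between NC+VCR and NC+DMSO. TIMP1, a metalloprotease inhibitor, was at 237, 298 and 168 FPKM in NC+DMSO and 1392, 1274 and 1724 in NC+VCR (log2 fold change 2.66 ± 0.20 (SE), adjusted p = 4.03e-06 in limma). TNFRSF12A, the receptor for TWEAK, was at 6.53, 4.29 and 1.34 FPKM in NC+DMSO and 23.7, 41.0 and 47.4 in NC+VCR (3.03 ± 0.56, adjusted p = 0.00172), a level that differed by over 5 times among its NC+DMSO libraries. AHSP, the chaperone of alpha-globin, was at 4.78, 5.78 and 3.87 FPKM in NC+DMSO and 0, 0 and 0 in NC+VCR, so it was listed at 0 in every NC+VCR library.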
